A study of Homo sapiens with 9 samples.

Results

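The 8 genes described here encode the transcription factors NKX2-1, FOXA1, FOXA2, FOXA3, GATA6, HNF4A, SOX2 and SOX9, which mark and pattern the foregut endoderm. They were taken by gene symbol from a deposited table of 45754 genes, in which 1567 genes carry a transcription factor family, and all 8 were found. RNA had been sequenced from human cells labelled H441, a lung adenocarcinoma line, in 9 libraries. There were 3 libraries of cells given 10 µM of the compound RSGL for 24 h, 3 of cells given 10 µM of the compound BSGL for 24 h, and 3 of cells given 0.1% DMSO, the solvent, for 24 h as the control. All were grown in RPMI medium with serum. The labels do not agree on the cells. The cell line is H441 throughout, while a genotype tag names A549 for the RSGL libraries and H460 for the BSGL and control libraries, so that by the labels a difference of treatment and a difference of cell line cannot be told apart wherever RSGL is compared. The labels do not say that the 3 libraries of a group came from separate cultures, so p-values measure the spread between these libraries, which may be technical in part.

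The foregut is the front part of the gut tube, from which the trachea, lungs, oesophagus, stomach, liver and pancreas form. The FOXA proteins are pioneer factors that bind closed chromatin and open it at endoderm genes, and GATA factors act beside them. NKX2-1 marks the respiratory field and stays on in surfactant-producing and club cells of the lung. SOX2 marks the dorsal foregut and the conducting airway, SOX9 marks the growing tips of the branching lung, and HNF4A is a nuclear receptor that drives liver and gut genes and is normally low in lung epithelium. In lung adenocarcinoma, loss of NKX2-1 is known to go with gut-type genes, and FOXA1, FOXA2 and HNF4A are known to take part in that state.

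Levels are given as FPKM, that is, fragments divided by gene length and by the library's size, and a factor was taken as expressed where it reached 1 FPKM in at least 3 of the 9 libraries. By this rule 5 of the 8 factors were expressed, namely FOXA2, SOX2, HNF4A, SOX9 and GATA6, and 3 were not, namely FOXA1, FOXA3 and NKX2-1. The same count of 5 was found at 0.5 FPKM and in TPM. It was 4 where 1 FPKM was required in all 9 libraries, because HNF4A reached 1 FPKM in the 6 BSGL and control libraries alone. HNF4A therefore passed through the groups in which it was higher. Of the 5 expressed factors, 4 differed between RSGL and control, beside 54.8% of all tested genes, and 0 between BSGL and control, beside 0.0861% of all tested genes. SOX2 and HNF4A were lower after RSGL by 4.43-fold and 4.74-fold in mean FPKM, GATA6 and SOX9 were higher by 2.10-fold and 1.64-fold, and FOXA2 lay within the spread of control.

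The libraries held 16720414 to 18738947 fragments in genes, recovered from the FPKM steps, and 12213 to 12338 genes reached 1 FPKM in each. Among markers of other cell types, 0 of 7 endothelial and 0 of 7 T cell genes passed the filter, and the T cell genes CD3D, CD3E and CD3G were at 0 in all 9 libraries. The summed level of 9 fibroblast genes was 7.93 to 8.21 FPKM in RSGL libraries, 10.4 to 11.1 in BSGL libraries and 9.95 to 11.4 in control libraries. Over 7 neuroendocrine genes, with CALCA at 0, the sum was 10.3 to 11.1 FPKM in RSGL libraries, 8.42 to 9.79 in BSGL libraries and 8.93 to 9.58 in control libraries. Over 8 macrophage genes, with AIF1 at 0, it was 116.5 to 121.5 FPKM in RSGL, 46.6 to 47.8 in BSGL and 42.2 to 42.7 in control libraries, nearly all of it CD68, a lysosome protein that is not limited to macrophages. Over 12 genes that KEAP1-mutant lines are known to express strongly, it was 2238 to 2309 FPKM in RSGL, 3814 to 3895 in BSGL and 4095 to 4193 in control libraries. ALDH1A1 weighs most in this sum, with the highest single value of the 12, 2001 FPKM. Of the 11 that passed the filter, 9 were called lower and 2 higher after RSGL, beside 27.6% and 27.2% of all tested genes. The part of these differences in the results on the factors was not tested.

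The promoters of the 2 factors that fell and of GATA6, which rose most among the 8, are shown because the levels of these genes moved after RSGL. The sequences are those of RefSeq on GRCh38.p14, from 250 bases before to 50 bases after the annotated start, on the strand of the gene. Of the 8 factors 6 had an entry, with 8 windows in all. Both strands were searched for the forkhead words TGTTTAC and TGTTTGC, the GATA words AGATAA and TGATAA, the SOX words ACAAAG and ACAATG, the NKX2-1 word CAAGTG and the HNF4 word CAAAGT, which can overlap ACAAAG. Capitals mark a match, written as it reads on the gene's strand. HNF4A has 2 windows, 45540 bases apart, and a level per gene does not say which start was used.
SOX2, chr3:181711675-181711974, plus strand: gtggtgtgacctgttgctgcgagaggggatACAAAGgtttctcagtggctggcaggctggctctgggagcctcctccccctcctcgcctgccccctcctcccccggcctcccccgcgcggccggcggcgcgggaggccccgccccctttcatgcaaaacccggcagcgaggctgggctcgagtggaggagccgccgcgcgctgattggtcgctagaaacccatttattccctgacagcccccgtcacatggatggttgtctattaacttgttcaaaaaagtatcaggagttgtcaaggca
HNF4A, chr20:44355449-44355748, plus strand: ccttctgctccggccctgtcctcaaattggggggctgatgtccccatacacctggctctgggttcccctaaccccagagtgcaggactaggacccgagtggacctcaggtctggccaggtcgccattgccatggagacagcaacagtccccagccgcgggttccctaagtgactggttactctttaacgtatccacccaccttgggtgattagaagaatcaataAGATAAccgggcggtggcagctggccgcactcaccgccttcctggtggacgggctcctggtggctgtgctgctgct
HNF4A, chr20:44400989-44401288, plus strand: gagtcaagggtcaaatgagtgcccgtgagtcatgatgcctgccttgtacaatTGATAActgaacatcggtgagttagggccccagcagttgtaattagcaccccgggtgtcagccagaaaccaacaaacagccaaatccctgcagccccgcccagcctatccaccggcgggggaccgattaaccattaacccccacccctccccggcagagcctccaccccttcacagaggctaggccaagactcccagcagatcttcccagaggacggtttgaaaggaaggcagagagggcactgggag
GATA6, chr18:22169339-22169638, plus strand: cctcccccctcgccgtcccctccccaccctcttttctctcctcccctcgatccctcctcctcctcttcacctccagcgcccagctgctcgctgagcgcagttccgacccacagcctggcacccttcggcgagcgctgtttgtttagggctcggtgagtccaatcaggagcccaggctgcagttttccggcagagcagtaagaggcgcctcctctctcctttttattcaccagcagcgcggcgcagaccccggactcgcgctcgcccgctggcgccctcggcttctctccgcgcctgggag

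The SOX2 window held the SOX word ACAAAG at bases 31 to 36. In the upstream HNF4A window there was 1 GATA word, AGATAA, at bases 225 to 230. The downstream HNF4A window had the GATA word TGATAA at bases 53 to 58. None of the words was in the GATA6 window. Such words are common. Among 35116 promoters of the same length, 24.5% held a SOX word, 16.3% a GATA word, 11.9% the HNF4 word, 11.5% the NKX2-1 word and 7.17% a forkhead word. GC content was 63.3% in the SOX2 window, 60% and 57.7% in the HNF4A windows and 66.7% in the GATA6 window, against a median of 58.7% over all promoters.

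**Figure D1:**
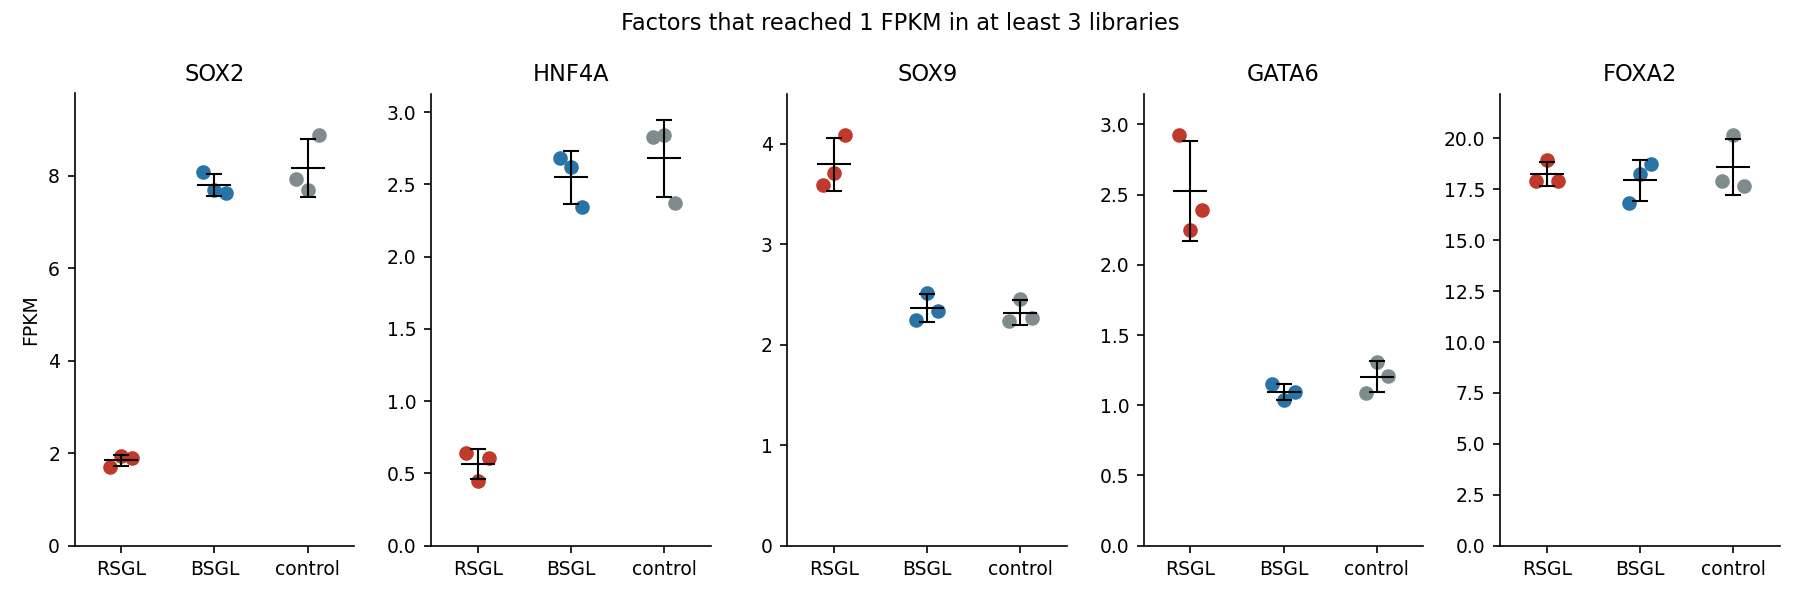
FPKM of the 5 expressed factors in each library, with 1 panel per gene on its own linear axis from 0; points are libraries, the long bar is the mean and the whiskers are 1 SD (n = 3 libraries per group). SOX2 and HNF4A were lowest in RSGL libraries, SOX9 and GATA6 were highest there, and FOXA2 overlapped between all groups.

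SOX2, an HMG-box factor of the dorsal foregut, the airway and pluripotent cells, is a gene on chromosome 3 (gene ID 6657, positions 181711924 to 181714436, plus strand). It had 1.71, 1.94 and 1.90 FPKM in RSGL libraries, 8.08, 7.69 and 7.64 FPKM in BSGL libraries and 7.92, 7.70 and 8.89 FPKM in control libraries. The RSGL libraries lay far below the other 6, which overlapped. Means were 1.85 ± 0.122 FPKM for RSGL, 7.80 ± 0.240 for BSGL and 8.17 ± 0.633 for control (SD, n = 3 each). On the log2(FPKM + 1) scale used for all tests, RSGL minus control was -1.69 (SE 0.059, 95% interval -1.82 to -1.56, limma adjusted p = 1.578e-08). The pseudocount of 1 makes changes of low genes look smaller, and limma-voom on recovered fragments gave -2.15 for SOX2. In bulk RNA, fewer cells with SOX2 and less SOX2 RNA per cell cannot be told apart. Among 871 tested genes with a transcription factor family, 2 had a lower change than SOX2, and among all 12775 tested genes 26 had.

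HNF4A (gene ID 3172, chromosome 20, 44355801 to 44432845, plus strand), the nuclear receptor of liver and gut epithelium, was lower after RSGL as well. Its level was 0.642, 0.447 and 0.608 FPKM in RSGL libraries, 2.69, 2.62 and 2.34 FPKM in BSGL libraries and 2.83, 2.84 and 2.37 FPKM in control libraries. The highest RSGL library was below every BSGL and control library, and the BSGL and control libraries overlapped. HNF4A passed the filter through the BSGL and control libraries alone, so the filter favoured a difference, and its call is no support. Group means came to 0.566 ± 0.104 FPKM for RSGL, 2.55 ± 0.181 for BSGL and 2.68 ± 0.268 for control (SD, n = 3 each). The difference of RSGL from control was -1.23 on the log2(FPKM + 1) scale (SE 0.0802, 95% interval -1.41 to -1.05, adjusted p = 9.441e-07). For this low gene the scale matters, since limma-voom on fragments gave -2.24 (adjusted p = 1.974e-11). The values rest on 175 fragments over the 3 RSGL libraries and 854 over the 3 control libraries, a ratio of 0.212 per unit of depth (exact binomial 95% interval 0.179 to 0.25). That interval and the other fragment intervals given here cover counting error only. A change below that of HNF4A was seen in 8 of the 871 transcription factor genes and in 104 of all genes tested.

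SOX9 (gene ID 6662, chromosome 17, 72121020 to 72126420, plus strand), the HMG-box factor of lung tips and of cartilage, rose after RSGL. It stood at 3.59, 3.71 and 4.09 FPKM in RSGL libraries, 2.24, 2.51 and 2.34 FPKM in BSGL libraries and 2.23, 2.46 and 2.27 FPKM in control libraries. All 3 RSGL libraries were above the other 6. The means of 3.80 ± 0.262 FPKM for RSGL, 2.37 ± 0.135 for BSGL and 2.32 ± 0.122 for control (SD, n = 3 each) gave a difference of RSGL from control of 0.53 on the log2(FPKM + 1) scale (SE 0.0602, 95% interval 0.39 to 0.66, adjusted p = 4.805e-05). SOX9 and SOX2, which belong to the same family, therefore moved in opposite directions. Of the 871 transcription factor genes, 55 had a higher change than SOX9.

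GATA6 (gene ID 2627, chromosome 18, 22169437 to 22202528, plus strand), a zinc finger factor of endoderm, heart and airway epithelium, also rose. The values were 2.93, 2.25 and 2.39 FPKM in RSGL libraries, 1.15, 1.04 and 1.10 FPKM in BSGL libraries and 1.09, 1.31 and 1.21 FPKM in control libraries. Again the RSGL libraries did not overlap with the others, although library 1 stood above the other 2 RSGL libraries. The mean was 2.52 ± 0.357 FPKM for RSGL, 1.09 ± 0.0556 for BSGL and 1.20 ± 0.111 for control (SD, n = 3 each). RSGL minus control was 0.67 on the log2(FPKM + 1) scale (SE 0.0826, 95% interval 0.49 to 0.86, adjusted p = 7.89e-05), and 1.06 by limma-voom on fragments (adjusted p = 5.587e-07). There were 31 transcription factor genes with a higher change.

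FOXA2 (gene ID 3170, chromosome 20, 22581004 to 22585463, minus strand), a forkhead pioneer factor, had the highest level of the 8 in every group. It measured 17.9, 18.9 and 17.9 FPKM in RSGL libraries, 16.8, 18.3 and 18.8 FPKM in BSGL libraries and 17.9, 20.2 and 17.7 FPKM in control libraries. The 3 groups overlapped throughout. Their means were 18.3 ± 0.597 FPKM for RSGL, 17.9 ± 1.00 for BSGL and 18.6 ± 1.39 for control (SD, n = 3 each), levels above those of 75.0% of the tested genes in RSGL, 74.7% in BSGL and 75.4% in control libraries. RSGL minus control was -0.02 on the log2(FPKM + 1) scale, with a 95% interval of -0.15 to 0.11 (adjusted p = 0.7601), so that a change beyond these limits was not seen and a smaller one could not be resolved.

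The 3 remaining factors were at or near the limit of detection. FOXA1 (gene ID 3169, chromosome 14, 37589552 to 37595120, minus strand), a forkhead factor that shares the DNA-binding domain of FOXA2, had 0.218, 0.188 and 0.237 FPKM in RSGL libraries, 0.204, 0.129 and 0.149 FPKM in BSGL libraries and 0.125, 0.196 and 0.114 FPKM in control libraries. These were 18, 14 and 18 fragments in RSGL libraries, 17, 10 and 12 in BSGL libraries and 10, 16 and 9 in control libraries. FOXA1 RNA was thus present in every library at a low level, and the groups overlapped. Its RSGL to control ratio was 1.48 by fragments, with an exact binomial 95% interval of 0.941 to 2.35 that holds 1. In a fit without the filter on low values, the adjusted p for RSGL minus control was 0.297.

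FOXA3 (gene ID 3171, chromosome 19, 45864260 to 45873797, plus strand), the third member of this forkhead group and a liver and gut factor, had 0.279, 0.253 and 0.275 FPKM in RSGL libraries, 0.0502, 0.432 and 0.416 FPKM in BSGL libraries and 0.235, 0.179 and 0.185 FPKM in control libraries. The counts behind them were 11, 9 and 10 fragments for RSGL, 2, 16 and 16 for BSGL and 9, 7 and 7 for control. BSGL held both the lowest and the highest libraries. The RSGL to control ratio by fragments was 1.35 (exact binomial 95% interval 0.758 to 2.43), and the adjusted p in the fit without the filter was 0.681 for RSGL and 0.9158 for BSGL against control.

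NKX2-1 (gene ID 7080, chromosome 14, 36516397 to 36520225, minus strand), the lung lineage factor, was close to absent. It had 1, 1 and 2 fragments in RSGL libraries, 3, 0 and 0 in BSGL libraries and 0, 0 and 1 in control libraries. As FPKM these were 0.0201, 0.0223 and 0.0436 for RSGL, 0.0596, 0 and 0 for BSGL and 0, 0 and 0.0209 for control. A library with 0 fragments still allows up to 0.0609 to 0.0642 FPKM, the worth of 3 fragments in the 4 libraries concerned. No difference between groups was detectable at this depth (adjusted p = 0.4324 for RSGL minus control without the filter). H441 is known to express NKX2-1, so these values go against that label.

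**Figure D2:**
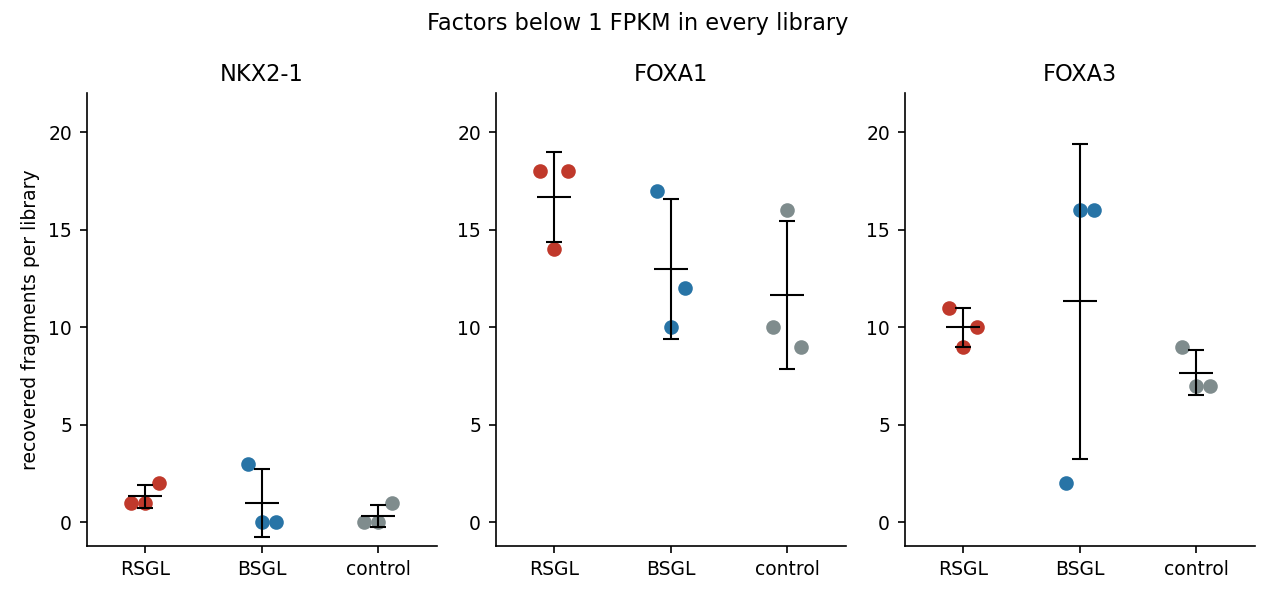
Recovered fragments per library for the 3 factors below 1 FPKM, with 1 panel per gene on a shared linear axis; points are libraries, the long bar is the mean and the whiskers are 1 SD (n = 3 libraries per group). FOXA1 had 9 to 18 fragments per library, FOXA3 had 2 to 16 and NKX2-1 had 0 to 3.

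Across the whole table, RSGL against control asks which genes differed at 24 h, and the answer sets the scale for these factors. limma called 54.8% of the 12775 tested genes at an adjusted p under 0.05, 27.2% higher and 27.6% lower, so that 4 called factors out of 5 tested stand against a background in which most genes were called. Among the 871 tested genes with a transcription factor family 51.1% were called. The libraries of RSGL and control did not overlap for 4 of the 5 factors, against 61.2% of all tested genes. SOX2 was among the 3.21% of genes called with a change of at least 1 in log2. HNF4A was among them too, but its passage through the filter without any RSGL library keeps it from counting as support. The median change of the 5 factors was -0.02, beside -0.00085 over all tested genes.

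After BSGL, given at the same dose and time, 0 of the 5 expressed factors were called against control, beside 0.0861% of all tested genes. At an unadjusted p under 0.05 limma again found 0 of the 5, beside 6.71% of all tested genes, and limma-voom called 0 of the 5. The libraries of BSGL and control overlapped for all 5 factors, while they lay apart for 12.8% of all tested genes. The 95% intervals of BSGL minus control on the log2(FPKM + 1) scale were -0.19 to 0.07 for SOX2, -0.23 to 0.13 for HNF4A, -0.12 to 0.15 for SOX9, -0.26 to 0.11 for GATA6 and -0.18 to 0.08 for FOXA2. These intervals bound any BSGL difference on this scale only and do not show that BSGL left the factors as they were. The pseudocount of 1 narrows them for low genes. The interval was -0.49 to 0.21 for GATA6 by limma-voom, and -0.38 to 0.24 for HNF4A with a pseudocount of 0.1.

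Set against each other, RSGL and BSGL differed in 4 of the 5 factors, beside 54% of all tested genes, 26.5% higher and 27.5% lower. HNF4A, among these 4, passed the filter through the BSGL and control libraries alone, so its call is no support here either. RSGL minus BSGL was -1.63 for SOX2 (SE 0.059, adjusted p = 2.233e-08) and -1.18 for HNF4A (SE 0.0802, adjusted p = 1.418e-06). For SOX9 it was 0.51 (SE 0.0602, adjusted p = 6.57e-05) and for GATA6 0.75 (SE 0.0826, adjusted p = 4.289e-05), or 1.21 by limma-voom for GATA6. FOXA2 differed by 0.02, with an interval of -0.11 to 0.15 (adjusted p = 0.7529). The comparisons with control and between compounds share libraries, so they are not separate lines of evidence.

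**Figure D3:**
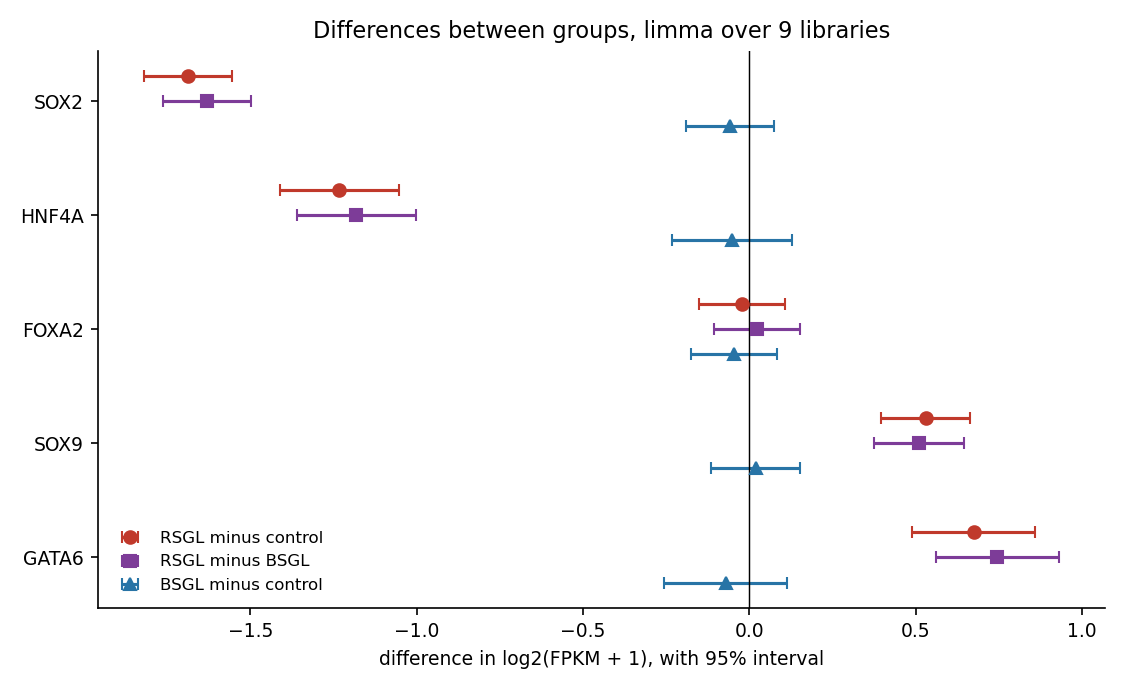
Differences in log2(FPKM + 1) for the 5 expressed factors from limma over 9 libraries; points are estimates, bars are 95% intervals, and the 3 comparisons are marked by colour and shape on a linear axis. SOX2 and HNF4A lie below 0 and SOX9 and GATA6 above 0 in both comparisons with RSGL, while every BSGL minus control interval holds 0.

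The order of the levels per length differed between groups. In RSGL libraries it ran FOXA2, SOX9, GATA6, SOX2, HNF4A, FOXA3, FOXA1 and NKX2-1, with no overlap between neighbours over the 3 libraries. In both BSGL and control libraries it ran FOXA2, SOX2, HNF4A, SOX9, GATA6, FOXA3, FOXA1 and NKX2-1. There HNF4A overlapped with SOX9 and FOXA3 with FOXA1, so the order within those 2 pairs is not settled.

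Ratios within a library do not depend on its depth. They were chosen after the values were seen and are descriptions. SOX9 over SOX2 was 2.10, 1.92 and 2.16 in RSGL libraries, 0.278, 0.326 and 0.306 in BSGL libraries and 0.282, 0.319 and 0.255 in control libraries. SOX9 exceeded SOX2 in all 3 RSGL libraries and in none of the other 6. GATA6 over HNF4A was 4.56, 5.03 and 3.94 in RSGL libraries, 0.428, 0.397 and 0.468 in BSGL libraries and 0.385, 0.460 and 0.511 in control libraries, with the same absence of overlap. An exact permutation test of 3 against 3 libraries cannot give a p below 0.1, so none was made. Set over FOXA2, which was not called, SOX2 averaged 0.101 ± 0.00526 for RSGL, 0.436 ± 0.0387 for BSGL and 0.442 ± 0.0610 for control (SD, n = 3 each).

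**Figure D4:**
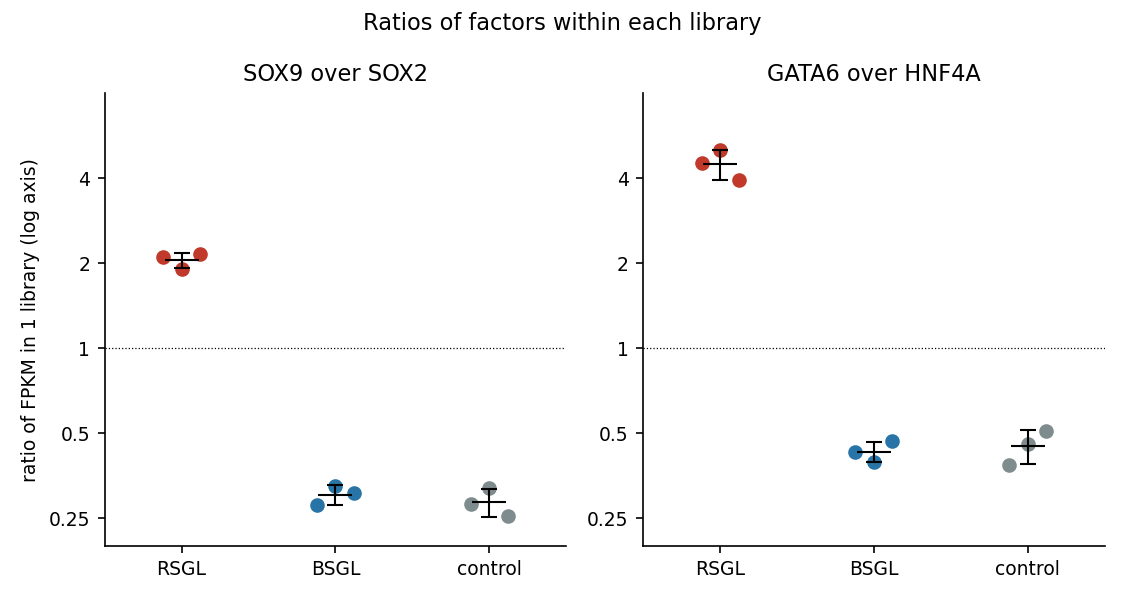
Ratio of SOX9 to SOX2 and of GATA6 to HNF4A within each library, in FPKM on a log axis; points are libraries, the bar is the mean and whiskers are 1 SD (n = 3 libraries per group). Both ratios were above 1 in every RSGL library and below 1 in every BSGL and control library.

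Lists of related genes, written from general knowledge, show how far the partners and known targets of the factors were expressed. Of 14 lung cell genes known as NKX2-1 targets, 2 passed the filter, ABCA3 and LPCAT1, while the surfactant gene SFTPB was at 0.0390 FPKM or lower and SCGB3A2 and SFTA3 were at 0 throughout. ABCA3, a lipid transporter of lamellar bodies, was higher after RSGL, at 9.25 ± 0.881 FPKM, than after BSGL, at 4.96 ± 0.282 FPKM, and than in control, at 4.92 ± 0.231 FPKM (SD, n = 3 each; RSGL minus control 0.79, adjusted p = 6.749e-06). LPCAT1, an enzyme of surfactant phospholipid, varied widely within groups, with 7.78 ± 3.98 FPKM for RSGL, 9.20 ± 4.47 for BSGL and 4.56 ± 0.798 for control, and was not called (adjusted p = 0.3436). NKX2-1 was near 0 in the same libraries, so ABCA3 RNA was present also in the 4 libraries with 0 NKX2-1 fragments.

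Of 19 liver and gut genes known as HNF4A targets, 3 passed the filter, FGA, FGB and AMBP, and all 3 fell after RSGL. They passed through the BSGL and control libraries alone, so the filter favoured a difference, and the count is no support. FGA, the alpha chain of fibrinogen, averaged 0.0860 ± 0.0429 FPKM for RSGL, 1.95 ± 0.297 for BSGL and 2.27 ± 0.0427 for control (SD, n = 3 each; RSGL minus control -1.59, adjusted p = 2.221e-07). FGB, the beta chain, averaged 0.0301 ± 0.0162 FPKM for RSGL, 1.09 ± 0.280 for BSGL and 1.40 ± 0.151 for control (-1.22, adjusted p = 7.932e-06). Both fibrinogen chains were thus close to absent after RSGL. AMBP, a plasma protease inhibitor precursor, was at 0.439 FPKM for RSGL, 1.07 for BSGL and 1.26 for control (-0.65, adjusted p = 0.0004462). APOA2 and APOB were at 0 in all libraries, and ALB did not pass 0.0468 FPKM. Of 12 mucous genes of the stomach, 0 passed the filter, and the highest single value was 1.2 FPKM for TFF1, a trefoil peptide.

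Within the families of the factors, 8 of 20 SOX genes passed the filter. SOX9 and SOX13 rose after RSGL and 6 fell, beside 54.8% of all tested genes called, 27.2% higher and 27.6% lower. The median was -0.38, beside -0.00085 over all tested genes. It cannot be read as support, since SOX18 passed the filter with 0 RSGL libraries at 1 FPKM or more and SOX15 with 1. SOX2 fell most, followed by SOX21, a close relative of SOX2 that often acts against it, at 1.75 ± 0.403 FPKM for RSGL, 2.62 ± 0.196 for BSGL and 3.07 ± 0.492 for control (SD, n = 3 each; RSGL minus control -0.57, adjusted p = 0.002115). SOX9 rose by 0.53. The rise of SOX13, 0.15 (adjusted p = 0.03133), was lost by limma-voom (adjusted p = 0.05482) and without RSGL replicate 1 or 3 or control replicate 1 or 3 (adjusted p = 0.07341 to 0.1023). It was also lost without the filter, at a common sum, under quantile scaling, with only the compared groups and with a replicate block (adjusted p = 0.05568 to 0.1373). SOX15, SOX18, SOX4 and SOX12 were lower by 0.46, 0.52, 0.30 and 0.19, and SOX15 lost its call without the filter (adjusted p = 0.05177), without RSGL replicate 3 (0.06539) and without control replicate 3 (0.06225). SOX1, SOX11 and SOX14 were at 0 in all libraries.

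Of 6 GATA genes 3 passed. GATA2, a blood and endothelial factor also found in lung tumours, moved opposite to GATA6, at 1.40 ± 0.163 FPKM for RSGL, 1.97 ± 0.261 for BSGL and 2.41 ± 0.0939 for control (SD, n = 3 each; RSGL minus control -0.51, adjusted p = 0.0004288). GATA3 was at 1.28 FPKM for RSGL, 1.06 for BSGL and 1.07 for control and was not called (adjusted p = 0.1965). Both genes of the HNF4 family passed, and HNF4A fell. HNF4G, the close relative of HNF4A, was at 1.20 ± 0.126 FPKM for RSGL, 1.51 ± 0.122 for BSGL and 1.49 ± 0.103 for control. The change from control, -0.18, missed the threshold (adjusted p = 0.06367). It passed by limma-voom (adjusted p = 0.04843), at a common sum (0.04866) and with neither trend nor robust step (0.02847). RSGL minus BSGL was -0.19 and was called (adjusted p = 0.04963), but not without the filter (0.08214) or without any 1 library (adjusted p up to 0.1617). That call was also lost at a common sum and under median ratio or quantile scaling (adjusted p = 0.05137 to 0.05489). The same held with only the compared groups (0.07994) and with a replicate block (0.08233). Of 7 NKX2 genes 1 passed, the heart factor NKX2-5, at 5.35 ± 0.362 FPKM for RSGL, 4.97 ± 0.306 for BSGL and 5.04 ± 0.555 for control, and it was not called (adjusted p = 0.4164). NKX2-5 RNA thus exceeded NKX2-1 RNA in every library.

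Among 32 other endoderm and airway transcription factors, 14 passed the filter, of which 2 rose and 4 fell after RSGL. These 6 of 14 are no more than the background of 54.8% of all tested genes and 51.1% of transcription factor genes called. The median was -0.12, beside -0.00085 over all tested genes. Of the 6, GRHL1 passed the filter through the RSGL libraries alone, EHF through the BSGL and control libraries alone, SPDEF with 1 RSGL library at 1 FPKM or more and PAX9 with 0 control libraries there, so the count is no support. ID2, a partner-blocking factor of the lung tips, averaged 38.9 ± 1.67 FPKM for RSGL, 84.4 ± 1.71 for BSGL and 99.6 ± 2.24 for control (SD, n = 3 each; RSGL minus control -1.34, adjusted p = 3.793e-09). SPDEF, a factor of mucous cells, was lower by 0.93 (adjusted p = 7.069e-05), at 0.974 FPKM for RSGL, 2.29 for BSGL and 2.73 for control. GRHL1, a factor of epithelial barriers, was higher, at 1.31 ± 0.133 FPKM for RSGL, 0.705 ± 0.0253 for BSGL and 0.478 ± 0.121 for control (0.65, adjusted p = 0.0001825). KLF5, a factor of epithelial progenitors, was lower by 0.14 (adjusted p = 0.03938). It lost the call without the filter (adjusted p = 0.0912) and with only the compared groups (adjusted p = 0.05844). The call was also lost without RSGL replicate 1 or 3, BSGL replicate 3 or any 1 control library (adjusted p up to 0.1273). HHEX, FOXP1 and NR2F2 were among the 8 factors not called, and HOPX, a marker of alveolar cells, was at 0 throughout.

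Of 26 genes of the signals that pattern the foregut, 16 passed the filter, 7 rose and 6 fell after RSGL, beside 54.8% of all tested genes called, 27.2% higher and 27.6% lower. The median was -0.00085, the same as over all tested genes, and turned to 0.0040 under median ratio scaling. AXIN2 and PTCH1, both among the 6, passed the filter through the BSGL and control libraries alone. The filter thus favoured a difference, and their calls are no support. SPRY2, a feedback inhibitor of FGF signalling, rose to 11.3 ± 0.578 FPKM in RSGL libraries, against 4.01 ± 0.274 for BSGL and 3.90 ± 0.0973 for control (RSGL minus control 1.33, adjusted p = 3.975e-08), and the FGF-responsive factors ETV4 and ETV5 rose too. WNT7B, an epithelial WNT ligand of the lung, rose to 43.3 ± 1.98 FPKM, against 19.9 ± 0.382 for BSGL and 18.0 ± 0.725 for control (1.22, adjusted p = 1.693e-08). AXIN2, a target of canonical WNT signalling, fell to 0.879 ± 0.112 FPKM, against 3.42 ± 0.380 for BSGL and 3.60 ± 0.0698 for control (-1.29, adjusted p = 3.793e-07). RARA, NOTCH2 and JAG1 also rose, and BMP4, RARB, PTCH1, GLI1 and JAG2 also fell. GLI1 (adjusted p = 0.04615) lost its call without the filter (adjusted p = 0.1084) and without RSGL replicate 3, BSGL replicate 2 or 3, or control replicate 1 or 2 (adjusted p = 0.05714 to 0.1561). The same held with the filter at 0.5 FPKM (adjusted p = 0.05082) and with only the compared groups (adjusted p = 0.07017). JAG2 lost its call without the filter (adjusted p = 0.05285), without RSGL replicate 1 (0.08292) and without control replicate 2 (0.08693).

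Known targets and partners of SOX9 and SOX2 outside the lung mostly did not pass the filter, which 12775 of all 45754 genes passed. Of 14 cartilage genes linked to SOX9, 13 were matched and 2 passed, COL27A1, a collagen that fell by 0.24 (adjusted p = 0.0183, but 0.06249 without RSGL replicate 2 and 0.06856 without control replicate 1), and MATN3, which was not called (adjusted p = 0.4133). COMP and COL11A2 were at 0 throughout. Of 11 pluripotency genes that work with SOX2, 1 passed, the RNA-binding protein LIN28B, at 2.38 ± 0.332 FPKM for RSGL, 2.70 ± 0.162 for BSGL and 2.76 ± 0.163 for control (SD, n = 3 each; adjusted p = 0.1116, but 0.01544 without RSGL replicate 3 and 0.04874 under quantile scaling). NANOG and LIN28A were at 0. In basal airway cells SOX2 is known beside TP63 and KRT5. Of 7 basal cell genes 2 passed, SOX2 and the keratin KRT15, which rose to 3.00 ± 0.186 FPKM, against 0.767 ± 0.209 for BSGL and 0.494 ± 0.101 for control (1.42, adjusted p = 1.369e-06), and TP63 was at 0.141 FPKM or lower. KRT15 passed the filter through the RSGL libraries and 1 BSGL library, with 0 control libraries at 1 FPKM or more. The filter thus favoured a difference, and its call is no support. The sum over the 7 was 5.31 to 5.76 FPKM in RSGL libraries, 8.94 to 9.63 in BSGL libraries and 8.78 to 10.1 in control libraries. SOX2 is itself among the 7, with means of 1.85 FPKM for RSGL, 7.80 for BSGL and 8.17 for control. The lower sum after RSGL therefore repeats the SOX2 result and is no sign of a fall of the other basal cell genes. For BSGL against control, ID2 was the only gene of the family, target, partner, factor, signal and basal cell lists called under any setting. It was called by limma-voom (-0.25, adjusted p = 0.001594) and under quantile scaling (-0.26, adjusted p = 0.04739), and limma as reported missed the threshold for it (-0.24, adjusted p = 0.08876) while calling 0.0861% of all tested genes. Outside these lists, 1 of the 11 tested genes high in KEAP1-mutant lines was called lower after BSGL as reported. This gene, AKR1C2 (-0.26, limma adjusted p = 0.02856), lost its call without the filter (0.08237) and with a replicate block (0.1429). It was also lost without any 1 BSGL or control library (adjusted p up to 0.1306). By limma-voom, ALDH1A1 (adjusted p = 0.004496) and ALDH3A1 (adjusted p = 0.002948) were called lower too.

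**Figure D5:**
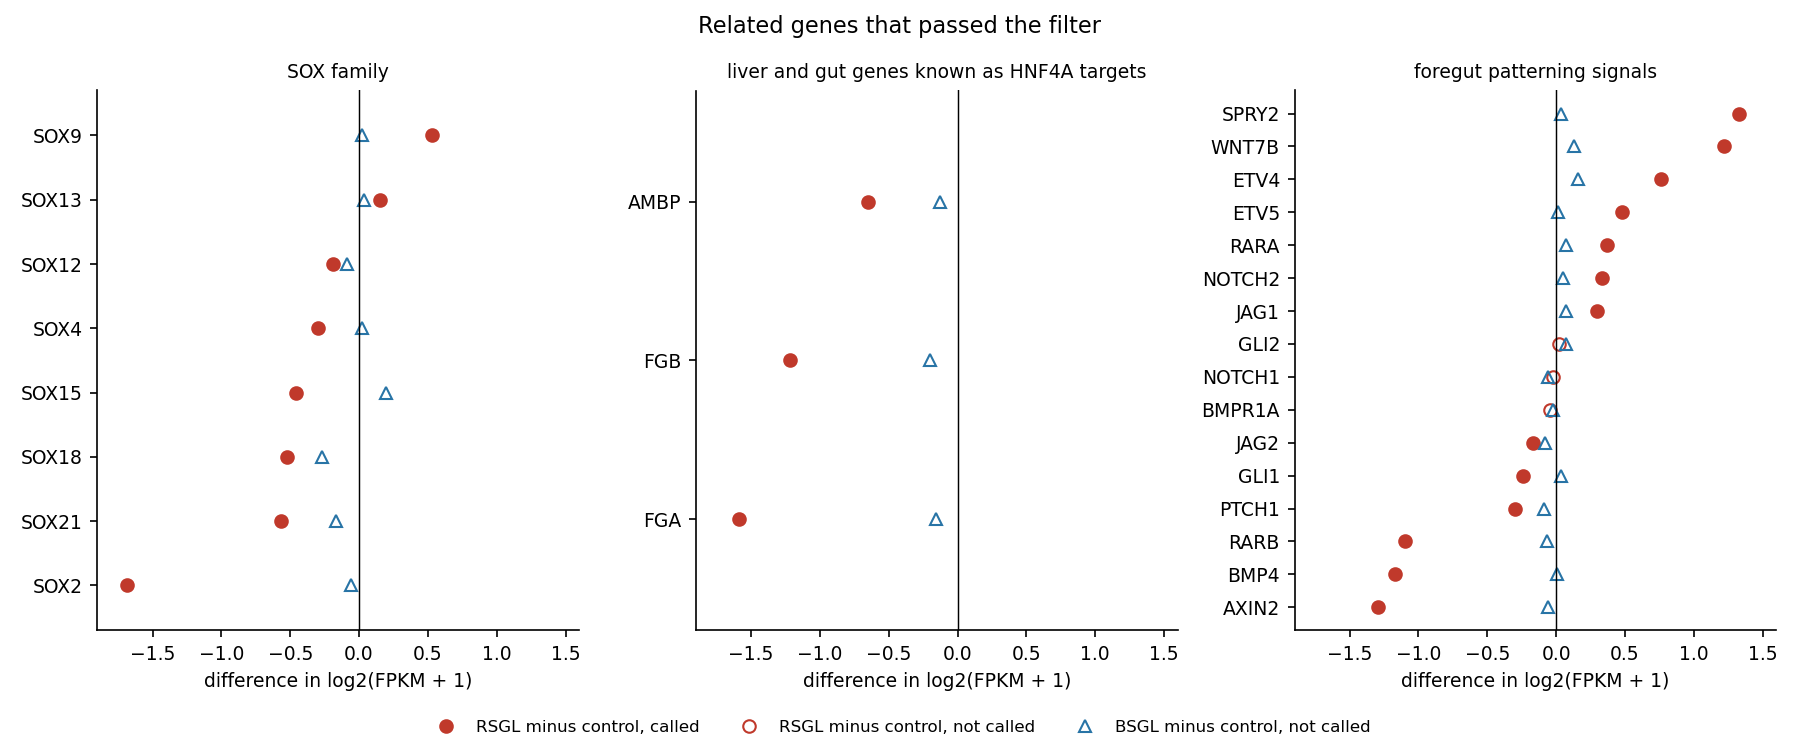
Differences from control in log2(FPKM + 1) for the SOX family, the HNF4A target list and the foregut patterning signals, on a shared linear axis; circles are RSGL minus control, triangles BSGL minus control, and filled symbols are called at an adjusted p under 0.05. SOX9 at 0.53 and SOX2 at -1.69 are the ends of the SOX family, and the BSGL symbols are all open.

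RNA genes beside the factors gave little signal. LINC00261, a lncRNA next to FOXA2 on the same strand (chromosome 20, 22560553 to 22578642), was the only one of the 8 matched that passed the filter, at 2.07 ± 0.156 FPKM for RSGL, 2.77 ± 0.482 for BSGL and 2.84 ± 0.298 for control (SD, n = 3 each). It was lower after RSGL by 0.32 (adjusted p = 0.01848), while FOXA2 was not called, and it lost the call without the filter (adjusted p = 0.05484) and without RSGL replicate 3, control replicate 1 or control replicate 3 (adjusted p = 0.05338 to 0.06304). SOX2 lies within the span of SOX2-OT on the same strand, and SOX2-OT stayed at 0.125 FPKM or lower. HNF4A-AS1 and NKX2-1-AS1, which overlap with their partners on the other strand, were at 0 in all libraries.

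The genes whose levels followed each factor most closely over the 9 libraries were taken from 7142 protein-coding genes with a mean of at least 5 FPKM. Pearson's r is given as a description, and with 3 groups it is set largely by the step between RSGL and the other libraries. For SOX2 RHPN2 and HNRNPA2B1, each at 0.999, were among the closest. HNRNPA2B1, an RNA-binding protein of splicing, averaged 277.3 FPKM for RSGL, 393.0 for BSGL and 397.6 for control. HNF4A was followed by CD24, ZNF638 and SP3, each at 0.996, and CD24, a cell surface glycoprotein, averaged 71.5 FPKM for RSGL, 160.1 for BSGL and 165.4 for control. GATA6 went with MAPK6 (0.992), TBRG1 (0.991) and EIF3D (0.989), and SOX9 with CLIC4 (0.993), GOLGA2 (0.991) and ACOT13 (0.989). FOXA2, which had no such step, went with LZTR1 (0.959), KIAA0319L (0.930) and ZNF358 (0.846), genes whose group means also lay close together.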

How the data were processed

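RNA of 9 libraries was measured by sequencing. TRIzol extraction and a NEBNext Ultra kit are named, per the labels' protocols. The submitters' processing notes name DESeq2 1.16.1, HISAT2 2.0.5 and featureCounts 1.5.0-p3 without their roles. The authors deposited FPKM per gene with gene lengths, per the file headers. The use of strand in counting was not given in the sources used here. Overlapping genes on opposite strands are therefore uncertain.

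The 8 factors were matched by symbol. Fragments were recovered as FPKM times length over the step of 1 fragment, and 100% of values under 300 fragments were within 0.01 of a whole number. This gave 16720414 to 18738947 fragments per library. The 12775 genes that reached 1 FPKM in 3 or more libraries were analysed as log2(FPKM + 1) with limma 3.58.1 in R 4.3.3, with 1 term per group, an intensity trend and robust empirical Bayes. P-values were adjusted by Benjamini-Hochberg over all tested genes, and the threshold was 0.05. Fragment sums have exact intervals at 95%. The pipeline was tested on simulated data. Replicate numbers are not said to pair the libraries, so the main fit held no pairing. Deviations of same-numbered libraries correlated at -0.212 to 0.121, which shows no clear shared deviation and cannot exclude a shared culture or day.

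The factors, 19 gene lists of 229 entries (2 unmatched) and the tests were chosen with earlier results of these data known. Named genes are all 8 factors, the 3 genes most alike to each expressed factor, and per list at most 3 called genes with the largest change, or every gene of a list with 5 or fewer tested. Other list genes were named after their values were seen. Some genes that these rules cover are not reported here and were left out of the lists. Other settings changed the pseudocount, filter, scaling, model and libraries included, and used limma-voom on fragments.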

Additional observations from a re-analysis of the deposited data

How the results depend on the processing

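Under all 20 other settings 4 of the 5 expressed factors were called for RSGL against control and for RSGL against BSGL, and 0 for BSGL against control. HNF4A is among the 4, with the limit from the filter given above. RSGL minus control ranged from -2.15 to -1.63 for SOX2, -2.24 to -1.17 for HNF4A, 0.49 to 0.70 for SOX9 and 0.59 to 1.06 for GATA6. The largest change of each came from limma-voom, which uses no pseudocount of 1. Differences near 0 changed sign without a call. Leaving out 1 library, FOXA2 ranged from -0.05712 to 0.03478 for RSGL minus control (positive without control replicate 2), from -0.08116 to 0.01074 for BSGL minus control (positive without control replicate 2) and from -0.0193 to 0.05496 for RSGL minus BSGL (-0.001529 without RSGL replicate 2, lowest without BSGL replicate 1). SOX9 for BSGL minus control ranged from -0.01213 to 0.04876 (negative without BSGL replicate 2 or control replicate 1) and was -0.0012 at a common sum.

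Genes called between BSGL and control, 11 as reported, were 0 with no filter, at a common sum, with neither trend nor robust step, with only the compared groups and with a replicate block, and 31 by limma-voom. Leaving out 1 library gave 0 to 8. The cause was not tested. Leaving out 1 library gave 6294 to 6869 genes for RSGL against control and 6166 to 6923 for RSGL against BSGL. With the replicate block, 4, 4 and 0 factors were called for RSGL against control, RSGL against BSGL and BSGL against control. The replicate numbers are not said to mark a shared culture, and 0 libraries were most alike to their own number in both other groups. Depth limits FOXA1, FOXA3 and NKX2-1, at 0 to 18 fragments per library.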

Other observations

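Values of genes near the factors were not part of a comparison above. TTPAL, a lipid-binding protein gene 43041 bases beyond HNF4A, was higher after RSGL by 0.27 (limma adjusted p = 0.002249) where HNF4A was lower, and FITM2, 44552 bases before it, was not called (-0.02, adjusted p = 0.9068). RPL37AP1 (adjusted p = 0.2898) and MIR3646, which lies within HNF4A (adjusted p = 0.2595), were not called either. Beside FOXA3, MYPOP was higher by 0.30 (adjusted p = 0.01202), IRF2BP1 was lower by 0.19 (adjusted p = 0.04612) with overlapping libraries, and SYMPK was not called (-0.05, adjusted p = 0.2545). Such calls stand beside 54.8% of all tested genes called, 27.2% higher and 27.6% lower, so they are no result about these neighbours.

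Other transcription factor genes with large changes after RSGL, named after their values were seen, set the fall of SOX2 in context. ID1, a blocker of basic helix-loop-helix factors and a known target of BMP signalling, averaged 53.6 ± 1.42 FPKM for RSGL, 169.4 ± 11.5 for BSGL and 196.1 ± 12.5 for control (SD, n = 3 each; RSGL minus control -1.85, adjusted p = 7.253e-09). It fell in the same libraries as ID2 and BMP4, where 27.6% of all tested genes were called lower. A link between these genes was not tested. CEBPD, a leucine zipper factor of acute-phase genes, was at 6.23 ± 0.593 FPKM for RSGL, 16.7 ± 1.39 for BSGL and 19.3 ± 1.17 for control (-1.49, adjusted p = 1.594e-07). HMGA2, a chromatin protein of embryonic tissue, was at 28.0 ± 1.08 FPKM for RSGL, 9.15 ± 0.0938 for BSGL and 8.11 ± 0.600 for control (1.67, adjusted p = 6.419e-09).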
